A study of Mus musculus with 2 samples.

Results

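The 32 genes described here make, sense, move and export cholesterol. They were chosen by name, from the enzymes of sterol synthesis, the SREBP and LXR regulators, and genes of sterol transport, storage and efflux, and all 32 were found among the 34714 genes of the expression table. The list does not hold every gene of these pathways. All 32 reached 1 FPKM (fragments per kilobase of transcript, scaled to library size, the unit read from the deposited values) in at least 1 of the 2 libraries, and 28 reached 5 FPKM. The libraries came from bone marrow-derived macrophages of C57BL/6 mice, 1 library per group. Marrow cells were cultured in both groups with 20 ng/mL macrophage colony-stimulating factor. For one library the cells then received FGK45, a monoclonal antibody against mouse CD40 given to activate that receptor, for 24 h, and for the other they received IgG as the control. How many mice gave marrow, and their age, was not given in the sources used here. With 1 library per group, no difference has a replicate check and no test was possible, and higher or lower means in the anti-CD40 library relative to the IgG library.

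Cells build cholesterol from acetyl units through mevalonate, isoprenoids, squalene and lanosterol. When sterols run low in the endoplasmic reticulum, the escort protein SCAP lets go of its INSIG anchors and carries the SREBP transcription factors to the Golgi, where proteases release their active part, which turns on the enzymes of synthesis. When sterols are plentiful, oxysterols and sterol precursors activate the LXR nuclear receptors, which turn on export. Macrophages take up large loads of cholesterol with dead cells and lipoproteins, store the excess as esters and depend on the efflux pumps ABCA1 and ABCG1 to unload it.

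As a check of the label, each of the 8 macrophage markers exceeded 1 FPKM in each library, with Csf1r at 333 FPKM in each. Summed markers of dendritic cells, neutrophils, B cells, T cells, fibroblasts, endothelium, mast cells and erythroid cells lay between 0.0435 and 3.13 FPKM per list and library. Of these markers only S100a8 (neutrophil), at 1.82 against 1.11 FPKM, and Hba-a1 (erythroid), at 1.18 against 2.91 FPKM, reached 1 FPKM. Flt3, Ly6g, Mpo, S100a9, Cd3d and Cd3e were listed at 0 in both. Cd40, the receptor bound by the antibody, had 3.01 FPKM after the antibody and 2.67 after IgG. Osteoclast markers summed to 55.1 against 50.2 FPKM, of which Ctsk made up 46.0 against 38.1, while Acp5 had 7.07 against 8.77 and Dcstamp 2.02 against 3.33. All 5 hepatocyte markers were lower with anti-CD40, with a summed level of 17.0 against 37.8 FPKM. Alb stood at 9.56 against 21.1 FPKM, Apoa1 at 3.15 against 7.38, Ttr at 2.39 against 4.83 and Serpina1a at 1.92 against 4.45, while Cyp7a1 was listed at 0 against 0.0223. The liver also expresses the genes of sterol synthesis, and the part of these transcripts in the values below was not tested. In bulk RNA, fewer cells of a type and less RNA per cell cannot be told apart.

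The values rise in steps that imply about 6.16 gigabases of aligned sequence for the anti-CD40 library and 5.58 for the IgG library, on the reading that the unit is FPKM. The 32 genes then rested on a median of some 862 against 687 fragments, from 35.2 for Stard4 to 37011 for Npc2. The 95% intervals given with ratios rest on these estimates and take in counting error alone, not the spread between cultures.

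The promoters of these genes were searched for letters known to be bound by regulators of sterol genes. SREBPs bind sterol regulatory elements, of which TCACCCCA is a common core, and act together with NF-Y, which binds CCAAT. Windows of 300 bases, 250 before to 50 after an annotated start, were available for 26 of the 32 genes from RefSeq (GRCm38.p6) and were searched on both strands. The core TCACCCCA was found for Hmgcs1, 137 bases before its start, and for Srebf2, 162 bases before. Over all genes with a window, 1.77% of 27025 hold it. The looser form TCACNCCA, which includes the first, adds Msmo1, 177 bases before its start, and is held by 4.97% of all genes. CCAAT was found for 21 of the 26, against 41.1% of all genes and 43.1% of those at 1 FPKM or more. The E-box CACGTG was found for 6 of 26, against 8.09% of all genes and 12.6% of those at 1 FPKM or more. The LXR half-site AGGTCA was found for 3 of 26, against 18.1% and 14.9%, and the direct repeat of that half-site with 4 letters between was found for none of them and in 5 of the 32851 windows. A match describes letters only. No window was at hand for Fdft1, Fdps, Sqle, Abcg1, Npc1 and Stard4.

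The 190 bases before the start are shown for the 3 genes with a TCACNCCA match, for Mvk, whose level was lower with anti-CD40, and for Mylip, which had the highest ratio. Capitals mark TCACNCCA and CCAAT, the latter on either strand (ATTGG on the printed one), and each is written 5′ to 3′ along its gene. They lie at chr13:119690161-119690350 (plus strand, Hmgcs1), chr15:82147079-82147268 (plus, Srebf2), chr8:64733579-64733768 (minus, Msmo1), chr5:114444079-114444268 (plus, Mvk) and chr13:45389552-45389741 (plus, Mylip) of GRCm38.p6. The start used for Mvk lies just inside the annotated gene, which begins at 114444264, so the end of its stretch overlaps the gene.
Hmgcs1: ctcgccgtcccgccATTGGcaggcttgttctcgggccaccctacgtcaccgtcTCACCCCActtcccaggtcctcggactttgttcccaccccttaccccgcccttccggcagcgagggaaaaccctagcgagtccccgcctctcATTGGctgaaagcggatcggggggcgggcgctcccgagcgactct
Srebf2: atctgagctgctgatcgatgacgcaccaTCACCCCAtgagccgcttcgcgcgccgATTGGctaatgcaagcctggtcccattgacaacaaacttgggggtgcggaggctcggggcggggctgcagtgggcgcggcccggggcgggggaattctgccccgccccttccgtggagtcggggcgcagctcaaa
Msmo1: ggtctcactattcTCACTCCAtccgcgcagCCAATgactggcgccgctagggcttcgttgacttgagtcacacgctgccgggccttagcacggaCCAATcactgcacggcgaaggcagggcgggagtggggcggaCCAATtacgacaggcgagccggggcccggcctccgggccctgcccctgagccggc
Mvk: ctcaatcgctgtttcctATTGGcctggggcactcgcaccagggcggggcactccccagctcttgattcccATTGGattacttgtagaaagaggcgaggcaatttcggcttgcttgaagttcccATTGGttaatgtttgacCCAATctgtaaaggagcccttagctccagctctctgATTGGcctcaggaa
Mylip: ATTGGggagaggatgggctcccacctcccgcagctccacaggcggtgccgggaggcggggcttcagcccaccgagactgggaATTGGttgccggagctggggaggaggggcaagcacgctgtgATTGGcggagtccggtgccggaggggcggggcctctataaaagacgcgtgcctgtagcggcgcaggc

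Hmgcs1 and Srebf2 pair the same core with CCAAT, and Msmo1 pairs the looser form with it. Hmgcs1, Msmo1, Mvk and Mylip carry repeated CCAAT boxes, and Mvk and Mylip hold neither form of the core. The median log2 ratio was 0.16 for the 21 genes with CCAAT and 0.05 for the 5 without it, and the 3 genes with TCACNCCA had a median of 0.16 against 0.11 for the other 23. These medians differ by less than the range among genes within each set.

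As a set, the sterol genes differed little between the libraries. The median log2 ratio of FPKM + 1, anti-CD40 over IgG, was 0.16 for the 32 genes, against 0.12 for the 9591 genes at 1 FPKM or more. The middle 50% ran from 0.05 to 0.28 for the sterol genes and from -0.06 to 0.27 for all genes. On the scale of FPKM ratios, the members ran from 0.833 to 1.53, with a median of 1.12. Over the 9101 genes that reached 1 FPKM in each library the median was 1.11, so most genes were slightly higher with anti-CD40 and ratios are best read against that shift. Above 0 were 27 of 32 members (84.4%), where 67.8% of all genes were, and 19 of 32 (59.4%) lay above the median of all genes, where 50.5% of all genes did.

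**Figure D1:**
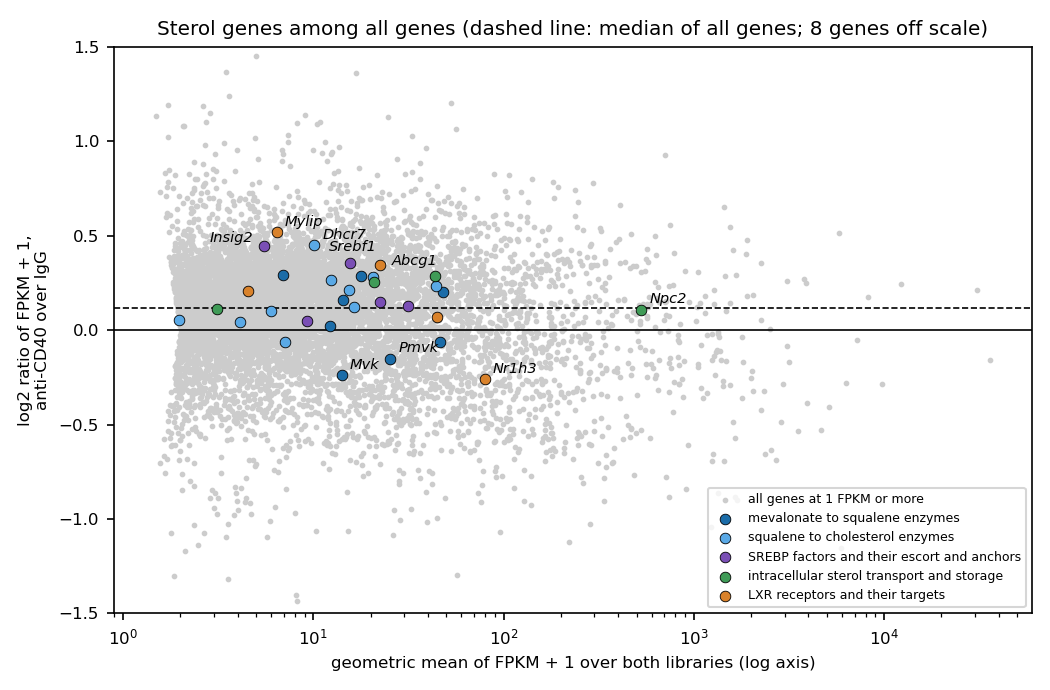
Log2 ratio of FPKM + 1 (anti-CD40 over IgG) against the geometric mean of FPKM + 1 for all genes at 1 FPKM or more (grey) and the 32 sterol genes (coloured by role). The solid line is 0 and the dashed line is the median of all genes, 0.12. The sterol genes lie inside the cloud, from Mylip at 0.52 to Nr1h3 at -0.26, and 8 genes of the table lie off the scale.

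At least 25% higher on the log2(FPKM + 1) scale were 5 of 32 members (15.6%), namely Mylip, Dhcr7, Insig2, Srebf1 and Abcg1, against 18.3% of all genes. None was lower by the same factor (20% or more), against 8.26% of all genes, and none was 1.5-fold apart, against 2.68% of all genes higher and 2.15% lower. Relative to the median of all genes, 3 members (Mylip, Dhcr7 and Insig2) were at least 25% higher, against 7.62% of all genes, and 2 (Nr1h3 and Mvk) at least 20% lower, against 13.7%. The counting interval lay wholly above the median ratio of 1.11 for 8 members (25%), against 20.3% of all genes with a known length, and wholly below it for 5 (15.6%), against 25.2%. With fragment numbers taken from all annotated transcripts, many of them short, 2 members (Abcg1 and Mylip) instead of 8 lay above, and the intervals of Insig2 (0.946 to 2.28), Idi1 (0.937 to 1.75) and Cyp51 (0.959 to 1.43) include 1. The share of sterol genes past the higher threshold was thus near that of all genes, and the shares on the lower side were smaller.

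**Figure D2:**
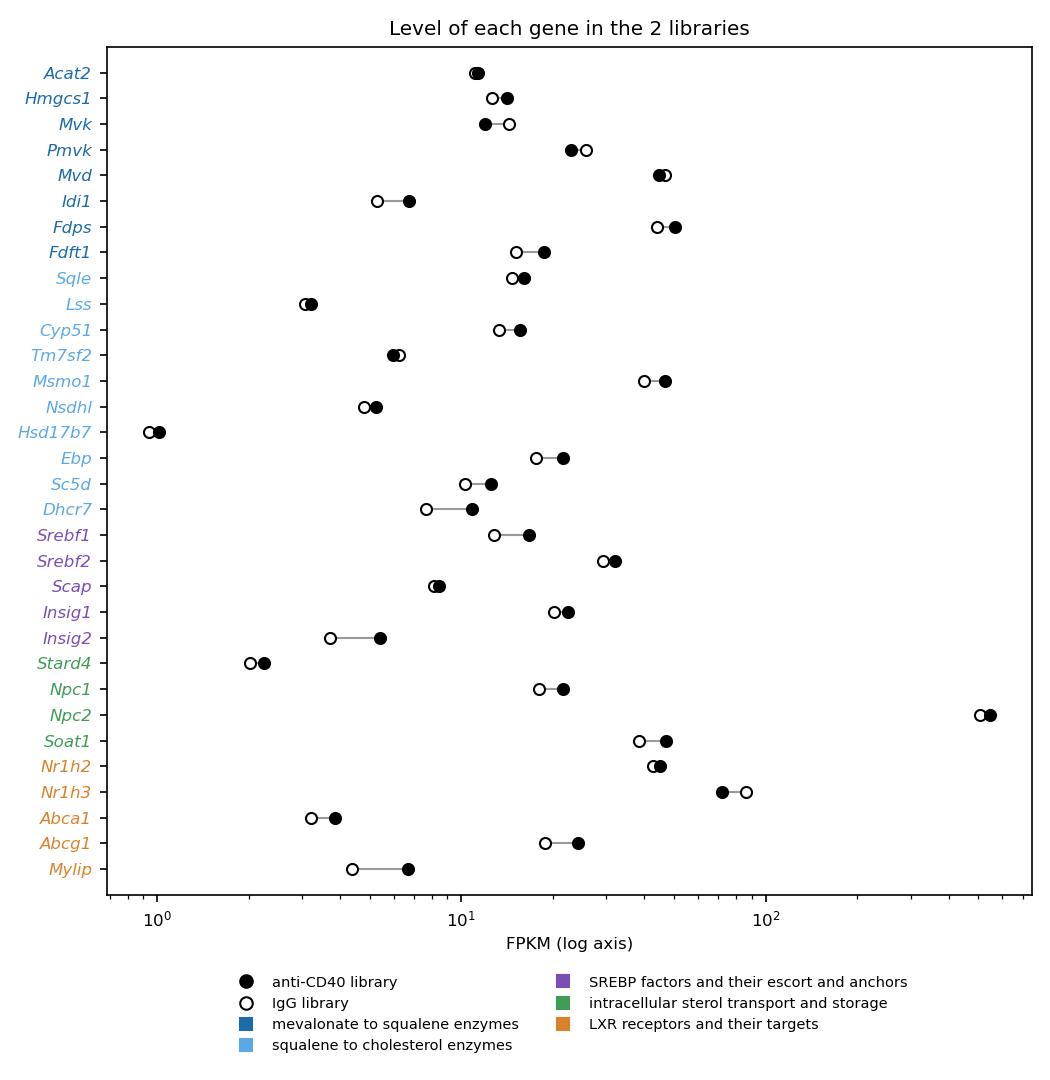
FPKM (log axis) of each of the 32 genes in the anti-CD40 library (filled) and the IgG library (open), with names coloured by role. Levels run from about 1 FPKM for Hsd17b7 to 546 against 507 for Npc2, and the gap within a gene is small beside the gaps between genes.

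The early enzymes, from acetyl-CoA to squalene, split in the middle of the pathway. The consecutive steps Mvk, Pmvk and Mvd were the only enzymes of these 8 that were lower with anti-CD40, and the listed enzymes before and after them had ratios above 1. With the median of all genes subtracted, Acat2 too was below 0, at -0.10. This split was seen in the values and was not a comparison set in advance. Acat2, the thiolase that joins acetyl units, had 11.3 against 11.1 FPKM. Hmgcs1, which adds the next unit to make HMG-CoA, had 14.2 against 12.6 FPKM, a ratio of 1.13 (interval 1.02 to 1.24). Both ratios are within counting error of the median gene. Mvk, mevalonate kinase (chromosome 5, 114444264 to 114460591, GRCm38), had 12.0 against 14.3 FPKM, 1.19-fold lower (interval 1.03 to 1.39). Pmvk, which adds a further phosphate, had 23.0 against 25.6 FPKM, a ratio of 0.897 (0.791 to 1.02). Mvd, the decarboxylase that makes isopentenyl diphosphate, had 44.6 against 46.6 FPKM, a ratio of 0.956 (0.891 to 1.03). The intervals of all 3 lay below the median ratio of 1.11, but those of Pmvk and Mvd include 1.

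The enzymes that follow had ratios above 1, but the intervals of Idi1 and Fdps include the median ratio of all genes. Idi1, the isomerase that makes the allylic starter unit, had 6.72 against 5.30 FPKM, a ratio of 1.27 (1.09 to 1.48, or 0.937 to 1.75 with lengths from all transcripts). Fdps, farnesyl diphosphate synthase, had 50.5 against 43.9 FPKM, a ratio of 1.15 (1.062 to 1.249). Fdft1, squalene synthase and the first step committed to sterols, had 18.7 against 15.2 FPKM, a ratio of 1.24 (1.13 to 1.35). The value of Fdft1 is uncertain, because 774 of its exon bases overlap, on the opposite strand, the cathepsin gene Ctsb, which stood at 4240 against 3559 FPKM, and the strand setting of the counting is not given. Fdps, Fdft1 and Idi1 also have transcripts of near-identical copies in GENCODE (90% identity or more over at least 300 bases), among them 6 for Fdps, and Acat2 has Acat3, at 0.622 against 0.521 FPKM. Acat2 also matches Tcp1 on the opposite strand, at 98.7% identity over 445 bases, and Tcp1 stood at 54.3 against 47.0 FPKM. The part of Tcp1 in the value of Acat2 was not tested. Ratios between genes of the same library do not depend on how the libraries are scaled. Mvk over Hmgcs1 was 0.845 against 1.14, 1.35-fold lower (interval from Poisson counting error 1.13 to 1.61), and Mvk over Idi1 was 1.78 against 2.70, 1.52-fold lower (1.23 to 1.87). Mvk and Idi1 had the lowest and the highest ratio of the 8 enzymes, and the interval does not allow for that choice. It was also not computed with lengths from all transcripts, which are shorter for both and would widen it. Pmvk and Mvd over Hmgcs1 were 1.26-fold (1.08 to 1.47) and 1.18-fold (1.05 to 1.32) lower. These genes differ in GC content, at 41.9% for Idi1, 43.3% for Hmgcs1, 56.3% for Pmvk, 58.8% for Mvk and 59.3% for Mvd. With GC and length trends removed, Mvk stood at -0.24, Hmgcs1 at -0.01 and Idi1 at 0.14 on the log2 scale. Pmvk stood at -0.17 and Mvd at -0.07. The gaps of Mvk to Hmgcs1 and to Idi1 were thus narrower than in the deposited values. Across the 8 enzymes the median log2 ratio was 0.09, and their summed level was 181 against 175 FPKM.

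Mvk shares its promoter region with Mmab, a gene of cobalamin metabolism read in the other direction, and 190 bases lie between the annotated genes. Mmab, named after its value was seen, had 3.13 against 2.94 FPKM, a ratio of 1.06 (interval 0.761 to 1.48), which includes both 1 and the ratio of Mvk.

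Most late enzymes, from squalene to cholesterol, had ratios above 1. Of the 10, 9 were above 1, against 67.8% of all genes, and 6 exceeded the median of all genes, against 50.5%. With GC and length trends removed, 5 of the 10 were below 0. Their median log2 ratio was 0.17 and their summed level 139 against 118 FPKM. The exception was Tm7sf2, a sterol reductase, at 5.95 against 6.25 FPKM, a ratio of 0.951 (0.76 to 1.19). It shares 532 exon bases with Vps51 on the same strand, which stood at 20.5 against 17.5 FPKM. Dhcr7 (chromosome 7, 143823167 to 143848410), the reductase that makes cholesterol from its dehydro precursor, was furthest from 1, at 10.8 against 7.65 FPKM. Its ratio was 1.42 (1.24 to 1.62), and its log2 ratio of FPKM + 1 was higher than that of 93.0% of the genes at 1 FPKM or more.

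The oxygenases and isomerases between them differed within a narrow band. Sqle, squalene epoxidase and a rate-controlling step, had 16.1 against 14.7 FPKM, a ratio of 1.10 (0.994 to 1.21). Lss, which closes the rings to lanosterol, was low, at 3.20 against 3.07 FPKM. Cyp51, the lanosterol demethylase, had 15.6 against 13.3 FPKM and Msmo1, the methylsterol oxygenase, 46.9 against 39.7. Ratios were 1.17 (1.07 to 1.27) for Cyp51 and 1.18 (1.10 to 1.26) for Msmo1, both including the median ratio. Ebp, the sterol isomerase, had 21.7 against 17.7 FPKM, and Sc5d, the desaturase that follows it, 12.5 against 10.3. These neighbouring steps had ratios of 1.23 (1.10 to 1.37) and 1.22 (1.10 to 1.36). The demethylating enzymes Nsdhl and Hsd17b7 had 5.23 against 4.80 and 1.02 against 0.940 FPKM. Hsd17b7 was the lowest of the 32 genes and its interval, 0.735 to 1.58, is too wide to show a difference of this size. Msmo1 was the most abundant of the late enzymes and Mvd and Fdps were the most abundant of the early ones, on the length-scaled FPKM of either library.

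**Figure D3:**
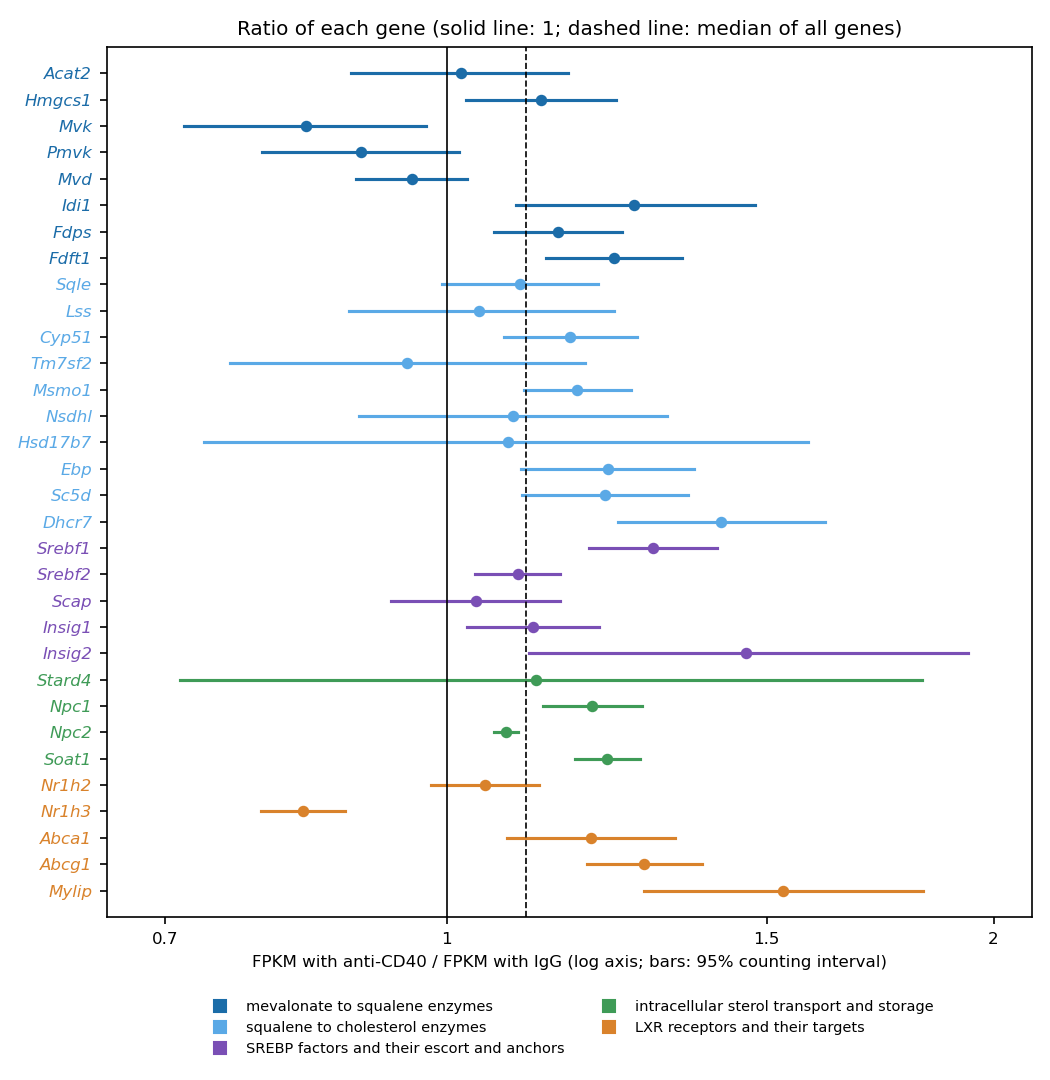
Ratio of FPKM, anti-CD40 over IgG (log axis), for each of the 32 genes, with 95% intervals for counting error. The solid line marks 1 and the dashed line the median of all genes, 1.11. Mvk, Pmvk, Mvd, Npc2 and Nr1h3 lie wholly below the dashed line, and Fdft1, Dhcr7, Srebf1, Insig2, Npc1, Soat1, Abcg1 and Mylip wholly above it.

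Among the sterol sensors, the less abundant partner of each pair had the higher ratio. Srebf1 (chromosome 11, 60199084 to 60224186), whose products drive fatty acid and sterol genes, had 16.7 against 12.8 FPKM. Its ratio was 1.30 (1.20 to 1.41, or 1.07 to 1.58 with lengths from all transcripts). Srebf2, the main driver of cholesterol synthesis, had 31.9 against 29.2 FPKM, a ratio of 1.09 (1.04 to 1.15) that is equal to the median of all genes within counting error. Srebf1 over Srebf2 was thus 0.522 against 0.440, 1.19-fold higher (1.08 to 1.31). That interval was not computed with the shorter lengths from all transcripts, which would widen it. The table gives 1 value per gene and does not separate the SREBP-1a and SREBP-1c transcripts. Insig2 (chromosome 1, 121304353 to 121332662), an anchor that retains SCAP, had 5.41 against 3.71 FPKM, a ratio of 1.46 (1.11 to 1.94, or 0.946 to 2.28 with lengths from all transcripts). Insig1, its partner and itself a target of SREBP, had 22.5 against 20.2 FPKM, a ratio of 1.12 (1.03 to 1.21). Insig1 over Insig2 was 4.15 against 5.44, a ratio of ratios of 0.763 whose interval, 0.576 to 1.01, includes 1. Scap, the escort, had 8.42 against 8.11 FPKM, a ratio of 1.04 (0.931 to 1.16).

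The list of genes that process SREBPs or turn over sterol-regulated proteins was described beside these. Of its 14 members at 1 FPKM or more, 13 had ratios above 1, 9 exceeded the median of all genes, 4 were at least 25% higher and none 20% lower, and the median log2 ratio was 0.17. The shares of all genes, which are the background for this and the further lists, were 67.8% above 1, 50.5% above the median, 18.3% at least 25% higher and 8.26% at least 20% lower. Erlin1, a membrane scaffold of that turnover, had 4.54 against 3.16 FPKM, the ubiquitin ligase gene Rnf145 5.02 against 3.76, and Pgrmc1, a heme-binding partner of sterol enzymes, 16.7 against 13.0. Of the fatty acid synthesis enzymes, many of them targets of SREBP-1, 4 of 11 were at least 25% higher and 1 at least 20% lower, with a median of 0.15. Fasn, fatty acid synthase, was the lower one, at 13.1 against 21.3 FPKM, 1.63-fold lower (1.55 to 1.72). The desaturase Fads1 had 23.4 against 16.2 FPKM, a ratio of 1.44 (1.33 to 1.56), and the elongase Elovl5 14.5 against 10.7. Members of that list therefore lay on both sides while Srebf1 itself was higher. The isoprenoid branch, which uses the products of Fdps and Idi1 for prenylation, dolichol and ubiquinone, had a median of 0.25 over 12 genes, which fell to 0.10 with GC and length trends removed, the same as the SREBP processing list. There 3 of 12 were at least 25% higher, against 18.3% of all genes, and none 20% lower, with Nus1 at 15.0 against 10.7 FPKM, Rce1 at 18.5 against 13.5 and Rabggtb at 11.0 against 7.96.

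The 4 listed genes of sterol transport and storage inside the cell had ratios above 1, as 67.8% of all genes did on the log2 scale. Npc2 and Npc1 hand cholesterol out of the lysosome, Npc2 as the soluble carrier and Npc1 as the membrane protein. Npc2 was by far the most abundant of the 32 genes, at 546 against 507 FPKM, at percentiles 98.5 and 98.3 of the genes that reached 1 FPKM. Its ratio of 1.08 (1.06 to 1.09) lay just under the median of all genes. Npc1 had 21.7 against 18.0 FPKM, a ratio of 1.20 (1.13 to 1.28), and shares some exon bases with Rmc1, at 8.61 against 7.96 FPKM. Npc2 over Npc1 was 25.2 against 28.1, 1.12-fold lower (1.05 to 1.19). Stard4, a cytosolic sterol carrier, was low, at 2.25 against 2.01 FPKM, with an interval from 0.713 to 1.83. Soat1, the enzyme that esterifies cholesterol for storage, had 46.9 against 38.3 FPKM, a ratio of 1.23 (1.18 to 1.28).

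Beside Soat1, 2 genes of ester breakdown were also higher. Lipa, the lysosomal acid lipase that frees cholesterol from lipoproteins, had 233 against 166 FPKM, a ratio of 1.40 (1.36 to 1.44), and Nceh1, a neutral hydrolase of cholesterol esters, had 42.8 against 33.7, a ratio of 1.27 (1.19 to 1.35). Lipe, hormone-sensitive lipase, was lower, at 10.9 against 13.6 FPKM. Of the sterol transfer proteins, the list that holds Lipa, 2 of 13 were at least 25% higher and none 20% lower, with a median of 0.10. The others named there were Stard3nl, a protein of late endosome contacts, at 25.6 against 17.9 FPKM and the oxysterol-binding protein gene Osbp at 4.16 against 3.23. The list of ester hydrolysis and oxysterol genes had 1 of 5 at least 25% higher, 1 at least 20% lower (Sult2b1, at 0.535 against 1.02 FPKM) and a median of 0.04.

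Of the LXR genes, the more abundant receptor was lower while the efflux pumps and Mylip had ratios above 1. Nr1h3 (chromosome 2, 91184061 to 91202829), which encodes LXR alpha, had 71.7 against 86.1 FPKM, 1.20-fold lower (1.14 to 1.27), the lowest ratio of the 32 genes. Nr1h2, which encodes LXR beta, had 44.8 against 42.7 FPKM, a ratio of 1.05 (0.98 to 1.12). The ratio of Nr1h3 over Nr1h2 was 1.60 against 2.02, 1.26-fold lower (1.16 to 1.37). Abca1, the pump that loads lipid-poor apolipoprotein, had 3.86 against 3.21 FPKM, a ratio of 1.20 (1.08 to 1.34). That interval includes the median ratio of all genes. Abcg1, the pump that hands sterol to mature particles, had 24.1 against 18.8 FPKM, a ratio of 1.28 (1.20 to 1.38). Mylip (chromosome 13, 45389742 to 45411940), the ubiquitin ligase also called IDOL that removes lipoprotein receptors, had 6.69 against 4.37 FPKM. Its ratio of 1.53 (1.28 to 1.83) was the highest of the 32 genes. The log2 ratio of FPKM + 1 for Mylip was above that of 95.7% of all genes at 1 FPKM or more. Within a library, Abcg1 over Nr1h3 was 0.336 against 0.218, 1.54-fold higher (1.41 to 1.69), and Mylip over Nr1h3 was 1.84-fold higher (1.53 to 2.20). Mylip and Nr1h3 stand at the ends of the ranking of the 32 genes, and the interval does not allow for that choice.

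Other genes of LXR signalling lay on both sides. Of 14 LXR partners, corepressors and further targets at 1 FPKM or more, 1 was at least 25% higher and 3 at least 20% lower, and 4 exceeded the median of all genes, for a median of 0.04. Smpdl3a, an LXR target that encodes a phosphodiesterase, had 60.4 against 38.9 FPKM, a ratio of 1.55 (1.45 to 1.66). Pltp, the phospholipid transfer protein, had 672 against 906 FPKM, 1.35-fold lower (1.33 to 1.37), and Apoc1 had 2.13 against 4.58, 2.15-fold lower (1.21 to 3.96). Apoc1 is also made by hepatocytes, whose marker Alb was 2.21-fold lower, and their part in its value was not tested. The lipoprotein uptake list had a median of 0.02 over 8 genes, of which 4 had ratios above 1 and 4 below. The scavenger receptor Marco had 14.0 against 10.3 FPKM and the large receptor Lrp1 61.2 against 49.6.

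Ratios varied with the GC content of transcripts. Across the 9321 genes at 1 FPKM or more with a GENCODE transcript, the correlation of the log2 ratio with GC content was -0.20 (Pearson) and -0.21 (Spearman), and across the 32 sterol genes it was -0.49 and -0.46. Genes of a library share its preparation and are not replicates, so these describe the pair of libraries. Every sterol gene with a ratio below 1 (Mvk, Pmvk, Mvd, Tm7sf2 and Nr1h3) had a GC content between 56.3% and 59.3%, in the highest of 5 equal-sized bins of all genes by GC content, where the median log2 ratio of all genes was 0.02. Srebf1, Srebf2, Scap and Nr1h2 lie in the same bin and had ratios above 1. With trends on GC content and length removed across all genes, Nr1h3 stood at -0.29, Mvk at -0.24, Acat2 at -0.13, Pmvk at -0.17, Mvd at -0.07 and Hmgcs1 at -0.01, and Srebf1 at 0.34, Mylip at 0.37, Dhcr7 at 0.33 and Insig2 at 0.28. These residuals have a median near 0 over all genes, so Acat2 lay below Mvd on this scale and did not stand apart from the 3 enzymes as it did in the deposited values.

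**Figure D4:**
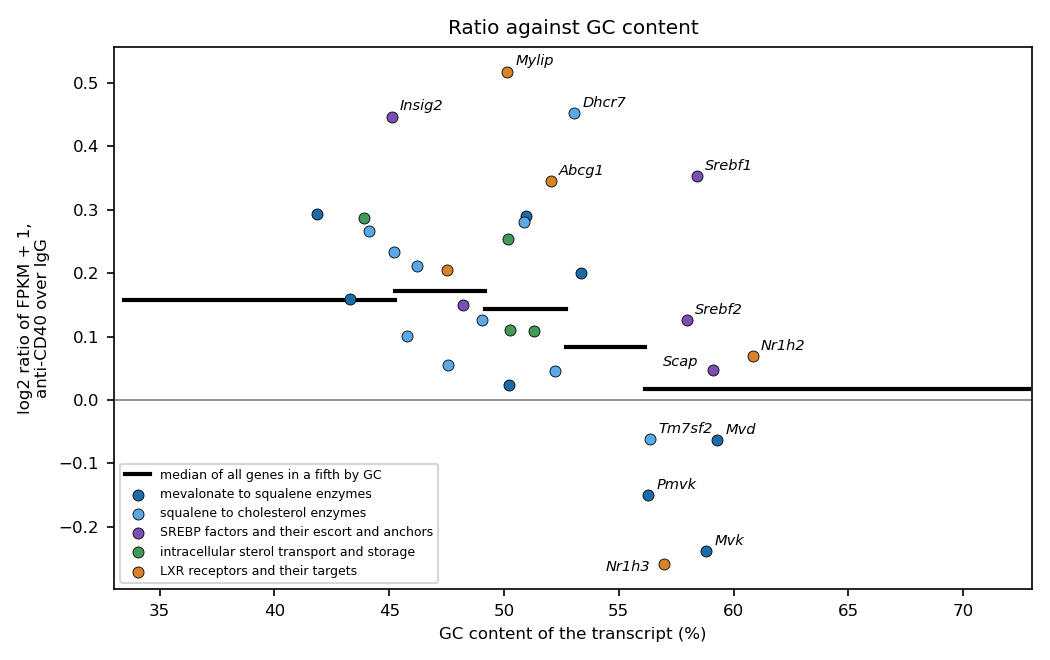
Log2 ratio of FPKM + 1, anti-CD40 over IgG, against the GC content of the transcript (%) for the 32 sterol genes. Black bars are medians of all genes in each of 5 bins by GC content. From the lowest bin to the highest they are 0.16, 0.17, 0.14, 0.08 and 0.02. The 5 sterol genes below 0 all lie in the highest bin.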

How the data were processed

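A single expression table was deposited, holding for each gene 1 value in each library. Per the submitters' processing notes it was made with HISAT2 2.1.0 and StringTie on mm10. Which annotation, strand setting and filters the authors used was not given in the sources used here. Deposited values were read as FPKM, which the header does not state, from StringTie and from unequal column sums (529104 for anti-CD40, 547362 for IgG). Columns were assigned by name.

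Members and lists were chosen with earlier results of these data known. Named genes were all 32 members, up to 3 genes per further pathway list with the largest log2 ratio either way, Cd40 and markers. Others were named after their values were seen. One gene that this rule names is not reported here. The measure was the log2 ratio with a pseudocount of 1 FPKM, for genes reaching 1 FPKM in at least 1 library, and folds are ratios of FPKM.

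Depth came from single-exon genes, whose FPKM times length were whole multiples of 1 step (tolerance 0.05) for 70% of 70 low genes (anti-CD40) and 88.9% of 36 (IgG). The tolerance alone gives 10% for 1 step fixed in advance. The step used was the one with the largest share among those tried, so 10% is not the level for that search. A fragment was taken as 300 bases, giving 20.5 and 18.6 fragments per FPKM and kilobase. Lengths and GC content are medians over protein-coding transcripts of the GENCODE M21 basic set, or over the remaining transcripts for genes without one. Intervals are exact conditional binomial, or for ratios of ratios log-normal with Poisson errors. The calls and intervals were also run on simulated counts with counting noise alone, the error that the intervals assume. That run checks the calculation and says nothing of the spread between cultures. Gene positions are RefSeq GRCm38.p6, which matched all 34714 symbols. Tools were Python 3.11.15, pandas 2.3.3, SciPy 1.17.1, statsmodels 0.14.6 and BLAST+ 2.17.0.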

Additional observations from a re-analysis of the deposited data

How the results depend on the processing

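With 1 library per group, leaving out a replicate was not possible. No paired analysis was possible because each group holds 1 library. Other pseudocounts (0.1 and 5 FPKM), subtraction of the median over all genes (centring), scaling to upper quartiles or to sums, no filter and a filter at 5 FPKM were tried, and removal of GC and length trends was chosen after seeing the data. Under these settings Mylip, Dhcr7, Insig2, Srebf1 and Abcg1 stayed above 0 and Mvk, Pmvk, Mvd, Tm7sf2 and Nr1h3 below it. Members below 0 numbered 5 as deposited, 13 after centring, 9 after upper-quartile scaling and 14 with trends removed, so the direction of small differences depends on the scaling.

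Members at least 25% higher, 5 as deposited, numbered 1 with a pseudocount of 5, 3 after centring, after upper-quartile scaling and with trends removed, and 9 after scaling to sums. Members at least 20% lower (the same factor) numbered 0 as deposited, and 2 after centring and after upper-quartile scaling. With a pseudocount of 0.1, 1 member was 1.5-fold apart. Over all genes, 1758 were 25% higher and 792 were 20% lower as deposited. They were 728 and 477 with a pseudocount of 5, 731 and 1310 after centring, and 983 higher after upper-quartile scaling and 807 with trends removed. With trends removed, the median was 0.05 for the members, 0.10 for the isoprenoid branch and -0.11 for the LXR partners. Depth limits Stard4, Hsd17b7 and Insig2 most.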
